A study of Mus musculus with 23 samples.

Results

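Ide, Fgfbp3 and Btaf1 are 3 genes of mouse chromosome 19 whose RNA varied together between libraries of the same group. They are 3 of the 18848 genes measured, matched by Ensembl identifier. They were chosen because Ide fell at separate levels over the 23 libraries, described in the choice as independent of group. The levels of Ide, and what its neighbours share with it, are therefore given as a description with no test. Libraries of the same group stood at different levels, but the highest level held libraries of Grin2b mutant mice alone. RNA was measured, and DNA copy number was not.

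The libraries came from brain, with no region named, and the mice were C57BL/6J males aged 17 days (P17). HT mice are heterozygous for the Grin2b C456Y mutation in a subunit of the NMDA receptor, and WT mice are wild-type. There were 6 HT DCS, 6 HT vehicle, 5 WT DCS and 6 WT vehicle libraries. The letters DCS usually stand for D-cycloserine, which acts on the glycine site of the NMDA receptor, but the labels do not spell them out and give no dose or time. All groups share strain, sex and age. The labels do not say that each library is a separate mouse, so the p-values below measure the spread between these libraries, which may be technical.

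Ide encodes insulin-degrading enzyme, a zinc metallopeptidase that cleaves insulin, amyloid-beta and other short peptides in brain and periphery. Fgfbp3 encodes a secreted protein that binds fibroblast growth factors and releases them from heparan sulfate in the matrix. Btaf1 encodes an ATPase that removes the TATA-binding protein TBP from DNA. Colonies of C57BL/6J mice are known to carry a segregating duplication on chromosome 19 that includes Ide and Fgfbp3. Whether the mice of these libraries carried it was not tested.

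On GRCm38, Fgfbp3 (ENSMUSG00000047632) lies on chromosome 19 from 36917550 to 36919615 on the minus strand, and Btaf1 (ENSMUSG00000040565) from 36926079 to 37012752 on the plus strand. Ide (ENSMUSG00000056999) lies from 37268743 to 37337852 on the minus strand. All 3 are protein coding. Fgfbp3 and Btaf1 run away from each other, with 6464 bases between their starts. Ide stands apart from them: 256.0 kb lie between the end of Btaf1 and the nearest end of Ide, and that gap holds Cpeb3 and March5. The window around the start of each gene of this divergent pair is shown because these neighbours begin so close together. Each sequence is the gene's own strand of RefSeq on GRCm38.p6, from 250 bases before the annotated start to 50 after it, and capitals mark the motifs found.
Fgfbp3, chr19:36919550-36919849, minus strand: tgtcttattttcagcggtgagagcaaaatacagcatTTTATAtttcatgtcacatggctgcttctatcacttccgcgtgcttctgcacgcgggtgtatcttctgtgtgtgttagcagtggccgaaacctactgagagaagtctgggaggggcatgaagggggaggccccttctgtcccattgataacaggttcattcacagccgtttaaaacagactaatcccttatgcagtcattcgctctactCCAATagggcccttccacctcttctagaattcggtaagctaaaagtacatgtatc
Btaf1, chr19:36925829-36926128, plus strand: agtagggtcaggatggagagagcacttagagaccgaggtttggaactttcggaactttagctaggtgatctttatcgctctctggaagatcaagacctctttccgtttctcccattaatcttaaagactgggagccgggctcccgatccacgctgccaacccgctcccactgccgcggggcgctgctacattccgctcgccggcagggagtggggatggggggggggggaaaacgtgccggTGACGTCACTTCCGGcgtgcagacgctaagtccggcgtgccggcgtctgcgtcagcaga
In all, 5 short motifs were searched on both strands of these windows. In Btaf1 the cyclic AMP response element TGACGTCA begins 9 bases before the annotated start, and the ETS site ACTTCCGG begins 2 bases before it. They share 1 base. TGACGTCA is in 1.8% and ACTTCCGG in 3.9% of the 32851 RefSeq windows of this length. Fgfbp3 has CCAAT 5 bases before its start and TATAAA on the opposite strand 214 bases before it, motifs in 37.4% and 13.6% of windows. The GC box GGGCGG, in 35.7% of windows, was in neither. The Btaf1 window has 60.0% G and C with 25 CG pairs, and the Fgfbp3 window 46.7% with 9, against medians of 52.7% and 7 over all windows. The RefSeq window listed for Ide begins at a site 3308 bases inside the gene as GENCODE draws it and is not shown. Of the 5 motifs it holds 1, CCAAT on the opposite strand (as ATTGG) 35 bases before that site.

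Markers of brain were present. All 6 neuronal markers were measured, with Snap25, a synaptic membrane fusion protein, at 43390 to 55220 normalised reads in every library, and so were all 4 astrocyte, 4 oligodendrocyte and 4 microglia markers. Of 6 markers of tissues outside the brain, 4 were not listed, and Apoa1 and Myh6 stayed at or under 22.98. Grin2b, the mutated gene, ranged from 15560 to 20960 normalised reads in HT DCS, 14620 to 19880 in HT vehicle, 15210 to 21720 in WT DCS and 16320 to 19270 in WT vehicle. That sum of both alleles does not check the genotype. Totals of normalised reads were 32.3 to 33.5 M per library, and an estimate of the depth before scaling, from the worth of 1 read in each library, gave 25.6 to 37.4 M reads. In bulk tissue, fewer cells that make an RNA and less of it per cell cannot be told apart.

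Ide fell at 3 levels, and libraries of the same genotype and treatment stood at different ones. In HT DCS, replicates 1 to 6 had 3024, 1993, 2801, 3001, 3976 and 2151 normalised reads of Ide. In HT vehicle they had 2008, 2903, 1927, 3913, 4275 and 1924. In WT DCS the 5 libraries had 1886, 2913, 2832, 2100 and 3039. The WT vehicle replicates 1 to 6 had 3093, 1966, 2930, 3012, 3125 and 2999, so replicate 2 alone lay low there. The ranges of the 4 groups overlap below 3125, and above it lie HT libraries alone. Sorted by Ide, 8 libraries lay between 1886 and 2151, 12 between 2801 and 3125 and 3 between 3913 and 4275. The first gap, 2151 to 2801, spans 650 normalised reads (0.38 on the log2 scale), and the second, 3125 to 3913, spans 788 (0.32). The next widest gap between neighbouring libraries was 0.10. Within a level the highest library exceeded the lowest by at most 1.14-fold, while the highest library of all stood 2.27-fold above the lowest.

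The lowest level held 2 HT DCS, 3 HT vehicle, 2 WT DCS and 1 WT vehicle libraries. The middle level held 3 HT DCS, 1 HT vehicle, 3 WT DCS and 5 WT vehicle libraries. The highest level held HT DCS replicate 5 and HT vehicle replicates 4 and 5, and none of the 11 WT libraries. Those 3 carry the replicate numbers 4 to 6, which hold 3 low, 5 middle and 3 high libraries, against 5, 7 and 0 for the numbers 1 to 3. The labels do not say what a replicate number stands for.

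**Figure D1:**
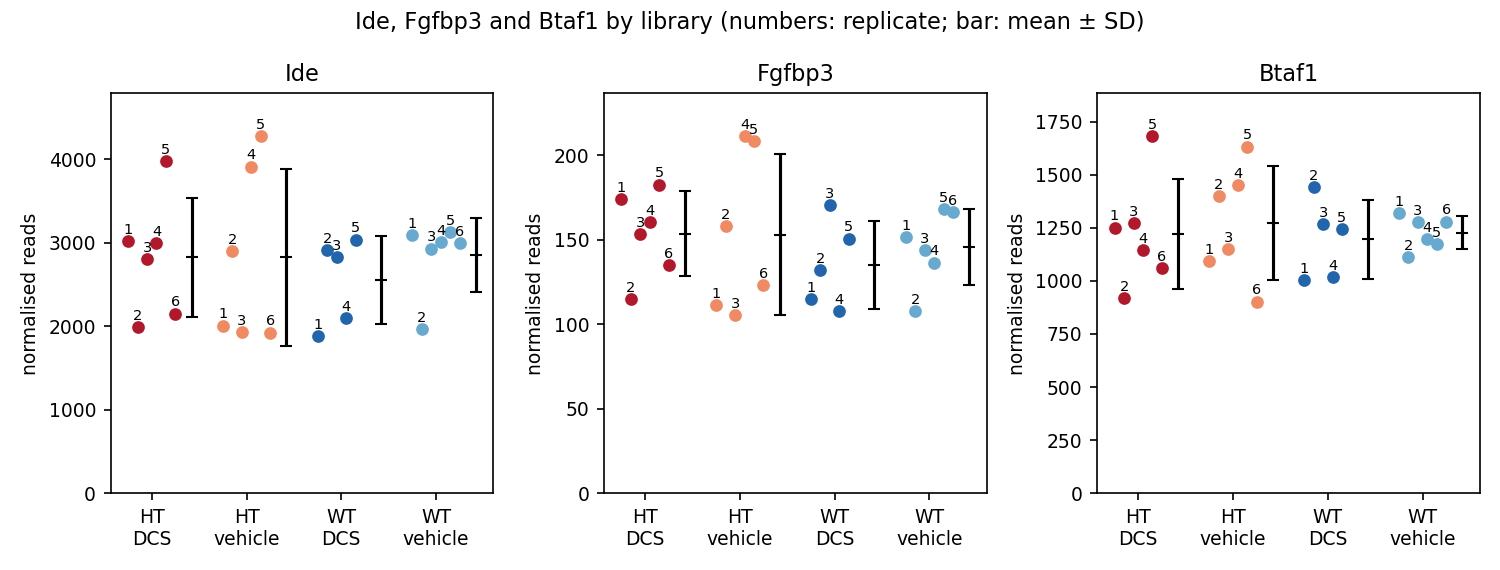
Normalised reads of Ide, Fgfbp3 and Btaf1 (vertical axis, linear, from 0) in each library of the 4 groups (horizontal axis). Numbers are replicates, and the bar beside each group is the mean with its SD. Ide sits near 3 levels, and libraries of the same group stand at different ones.

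Fgfbp3, the growth factor carrier, was a scarce RNA and largely followed the levels of Ide. It had 174.2, 114.9, 153.0, 160.6, 182.6 and 135.1 normalised reads in HT DCS replicates 1 to 6. In HT vehicle it had 111.3, 157.8, 105.2, 211.1, 208.1 and 123.2. In WT DCS it had 114.6, 131.9, 170.3, 107.6 and 150.6, and in WT vehicle 151.5, 107.6, 143.6, 136.4, 167.8 and 166.4. The highest 3 libraries, HT vehicle replicates 4 and 5 and HT DCS replicate 5, are the 3 highest in Ide. In HT DCS all 6 libraries held the same rank for both genes, against 1 of 6 in HT vehicle, 0 of 5 in WT DCS and 2 of 6 in WT vehicle. Fgfbp3 lay between 105.2 and 135.1 in the 8 libraries lowest in Ide, between 131.9 and 174.2 in the 12 middle ones and between 182.6 and 211.1 in the 3 highest. Only the first pair of ranges overlaps, at HT DCS replicate 6 and WT DCS replicate 2. At a mean of 147.2 normalised reads, counting error alone is about 8.2% per library, against 1.9% for Ide and 2.9% for Btaf1. Its part in the order of libraries within a level was not tested.

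Btaf1, the TBP-removing ATPase, moved in the same direction over a narrower range. It had 1251, 919.4, 1272, 1145, 1681 and 1061 normalised reads in HT DCS replicates 1 to 6. In HT vehicle it had 1095, 1402, 1150, 1451, 1633 and 902.8. In WT DCS it had 1006, 1442, 1267, 1017 and 1245, and in WT vehicle 1321, 1112, 1277, 1198, 1176 and 1280. The 8 libraries lowest in Ide lay between 902.8 and 1150 and the 12 middle ones between 1145 and 1442, overlapping at HT vehicle replicate 3 and HT DCS replicate 4. The 3 highest in Ide were again the 3 highest, at 1451 to 1681. From the lowest library to the highest, Ide spanned 2.27-fold, Fgfbp3 2.01-fold and Btaf1 1.86-fold.

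The 3 genes varied unequally. On the log2 scale, after taking off group means, Fgfbp3 changed by 0.76 and Btaf1 by 0.58 for each unit of Ide over the 23 libraries. The within-group SD was 0.38 for Ide, 0.31 for Fgfbp3 and 0.25 for Btaf1. Ide exceeded 99.8% of the 4109 genes with a mean within 2-fold of its own, whose median SD was 0.07, and Btaf1 exceeded 99.0% of 5193. Fgfbp3 exceeded 89.6% of 2817 such genes, whose median SD was 0.19. The 3 genes were chosen with the separate levels of Ide within groups in view. These ranks therefore restate that choice and are no test.

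**Figure D2:**
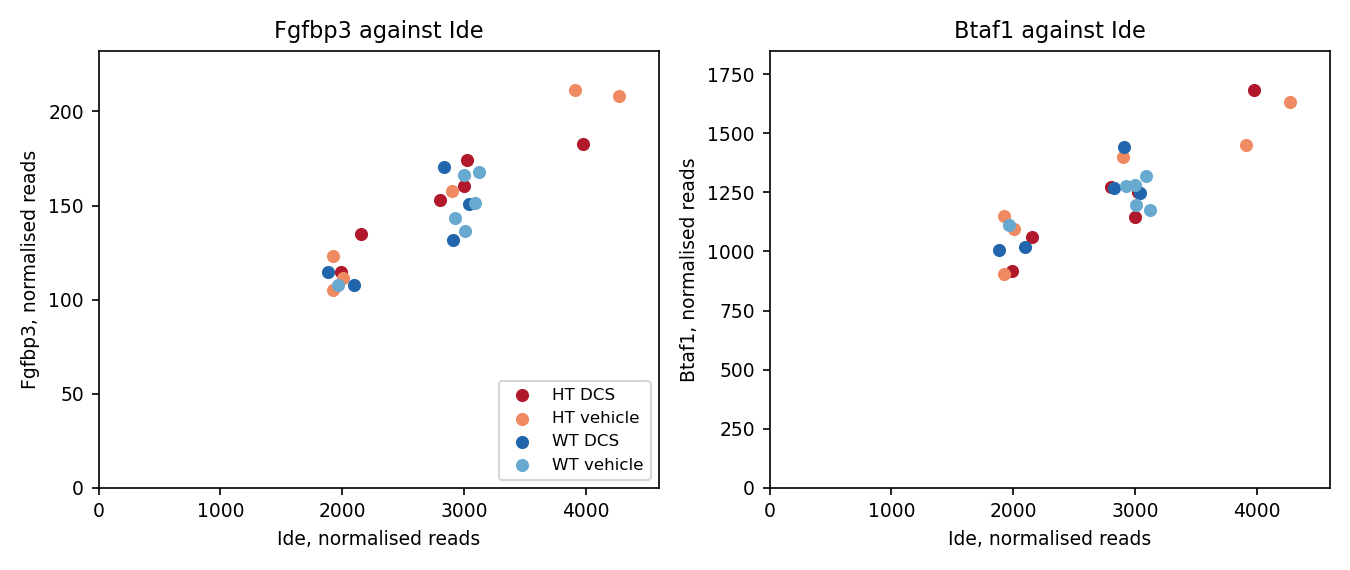
Fgfbp3 (left) and Btaf1 (right) against Ide, in normalised reads on linear axes from 0, 1 point per library coloured by group. Points form 3 clouds, with 8 libraries at 1886 to 2151 of Ide, 12 at 2801 to 3125 and 3 at 3913 to 4275. Each cloud mixes groups, but the highest holds HT libraries alone.

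Among all 17255 other genes tested, Fgfbp3 and Btaf1 were the most like Ide. Likeness is Pearson's r over the 23 libraries on log2(normalised reads + 1), after taking off each group's mean. It was 0.93 for Fgfbp3 (Spearman rho 0.89) and 0.89 for Btaf1 (rho 0.84), and 0.76 between Fgfbp3 and Btaf1 (rho 0.76). The points share libraries, scaling and depth, and no p is attached because the genes were chosen from these libraries. Without the 2 libraries farthest from the median of Ide, r was 0.92 for Fgfbp3 and 0.84 for Btaf1. The relation rests on the steps: among the 8 lowest libraries r to Ide was 0.39 for Fgfbp3 and 0.12 for Btaf1, and among the 12 middle ones 0.12 and -0.40. Fgfbp3 and Btaf1 were the least alike of the member pairs. Their r to each other was -0.40 among those 8 libraries and -0.36 among those 12. Over all genes the central 95% of r to Ide ran from -0.50 to 0.49, with a median of 0.00.

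Beyond these, the likeness dropped to 0.79. Of the 10 genes most like Ide, the next were Fnip1 (0.79, chromosome 11, a partner of folliculin in nutrient sensing), Gpr137c (0.76, chromosome 14), Baz2b (0.76, chromosome 2, a bromodomain protein), Mau2 (0.75, chromosome 8, a cohesin loader), Tsc1 (0.74, chromosome 2, a brake on mTOR signalling), Dcun1d4 (0.74, chromosome 5, of cullin neddylation) and Gm16867 (0.74, chromosome 14). The tenth, Gm37206 (0.72), is an unconfirmed transcript of chromosome 19, but far from Ide, from 4762103 to 4765171. These 8 genes spanned 1.16-fold to 1.59-fold between libraries, with Gm37206 and Gm16867 (1.51-fold) the widest. Fnip1 ran from 1428 to 1767 normalised reads, 1.24-fold, with r of -0.08 and -0.09 to Ide in the 8 lowest and 12 middle libraries. For Gpr137c these were -0.47 and 0.55, and for Baz2b 0.61 and -0.10. At the other end stood Pdcd5 (-0.83, chromosome 7, a cell death gene), Tspan13 (-0.78), the acid sphingomyelinase gene Smpd1 (-0.78), and 2 long noncoding RNAs, 5830454E08Rik (-0.78, 7.901 to 24.74 normalised reads) and Gm16701 (-0.73, 6.328 to 27.34). Pdcd5 ran from 703.3 to 863.9, 1.23-fold. In all, 17 genes reached an r of 0.7 and 17 reached -0.7.

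For Fgfbp3 the most alike were Ide, Fnip1 (0.79), Gpr137c (0.79), Btaf1 and Baz2b (0.73). For Btaf1 they were Ide, Rbm6 (0.81), an RNA-binding protein gene, Gm20518 (0.79), the cation channel gene Trpc6 (0.77) and 8030462N17Rik (0.76).

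The 2 genes that lie between the members did not follow the levels of Ide. Cpeb3, from 37021291 to 37208601 on the minus strand, encodes a translational regulator of synaptic mRNAs, and March5, from 37207543 to 37222151 on the plus strand, a ubiquitin ligase of the outer mitochondrial membrane. Cpeb3 had 1934 to 2502 normalised reads in the 8 libraries lowest in Ide, 1989 to 2675 in the middle 12 and 2301 to 2359 in the highest 3. March5 had 1668 to 1856, 1593 to 1808 and 1713 to 1787 in the same order. All 3 ranges overlap for each gene. For each log2 unit of Ide, Cpeb3 changed by 0.09 (r 0.30) and March5 by 0.00 (r -0.03). Within the 8 lowest and the 12 middle libraries r to Ide was 0.43 and 0.69 for Cpeb3, and 0.07 and -0.01 for March5. The Cpeb3 within-group SD of 0.11 was larger than that of 85.1% of the 4417 genes of like mean. The March5 within-group SD of 0.05 was larger than that of only 7.8% of the 4947 genes of like mean.

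**Figure D3:**
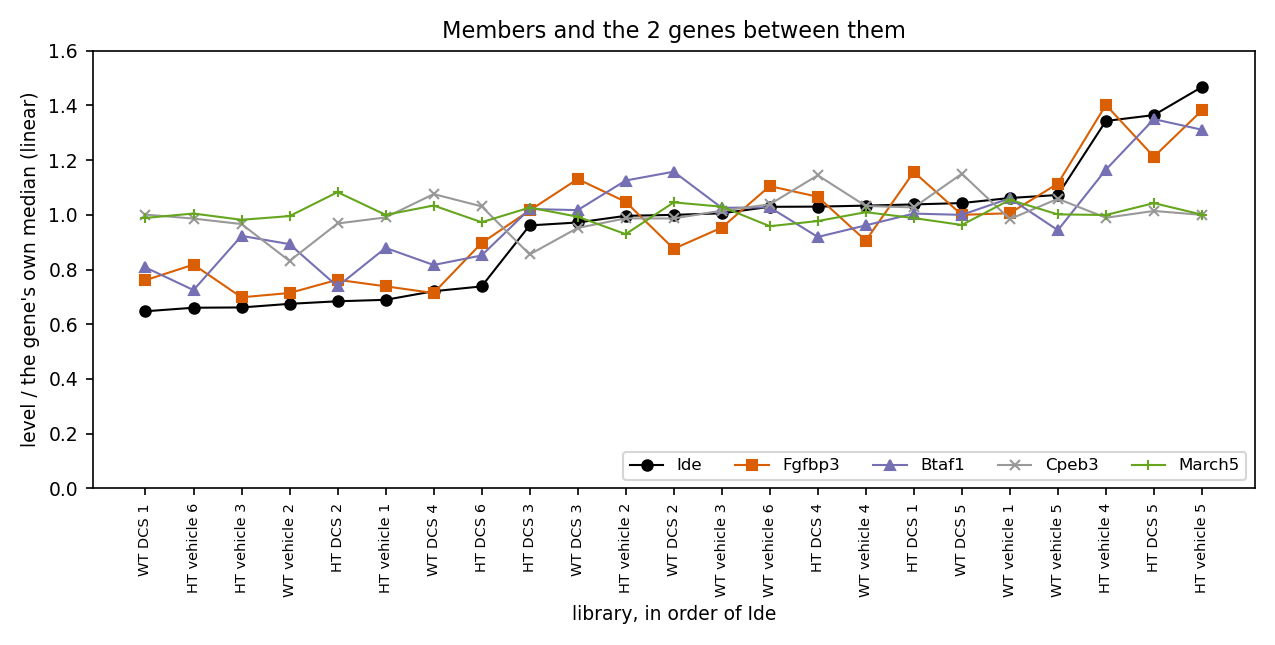
Level of 5 genes in each library, divided by the gene's own median over the 23 libraries (vertical axis, linear from 0), with libraries in order of Ide (horizontal axis). Ide, Fgfbp3 and Btaf1 rise from one level of Ide to the next and span 2.27-fold, 2.01-fold and 1.86-fold. Cpeb3 and March5 span 1.38-fold and 1.17-fold with no such rise.

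No tested neighbour in the flanks was as like Ide as Fgfbp3 or Btaf1. Of 22 measured neighbours (the 2 between and 10 on each side), 19 had a mean of at least 10. Their r to Ide ran from -0.37 to 0.44, with a median of -0.02, and 0 of 19 reached 0.5. Tnks2, a tankyrase gene and the nearest neighbour beyond Fgfbp3, had r 0.32 and changed by 0.05 per unit of Ide. Kif11, the mitotic kinesin gene on the far side of Ide, had r 0.17 and a 1.54-fold range, from 66.58 to 102.7 normalised reads. Hhex, a homeobox gene, had r 0.03, and Exoc6, of the exocyst, 0.30. The highest r, 0.44, was for Hectd2os, an antisense RNA at 5.234 to 24.40 normalised reads, which changed by 0.66 per unit of Ide, a slope above the 0.58 of Btaf1. The long noncoding RNA A830019P07Rik, at 15.74 to 42.98 normalised reads, had r 0.41 and a slope of 0.38. The pseudogene Rpl10-ps6, which lies inside Ide, averaged 6.86 and was not tested. Over the other 558 tested genes of chromosome 19, r ran from -0.64 to 0.72, with a median of -0.02.

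**Figure D4:**
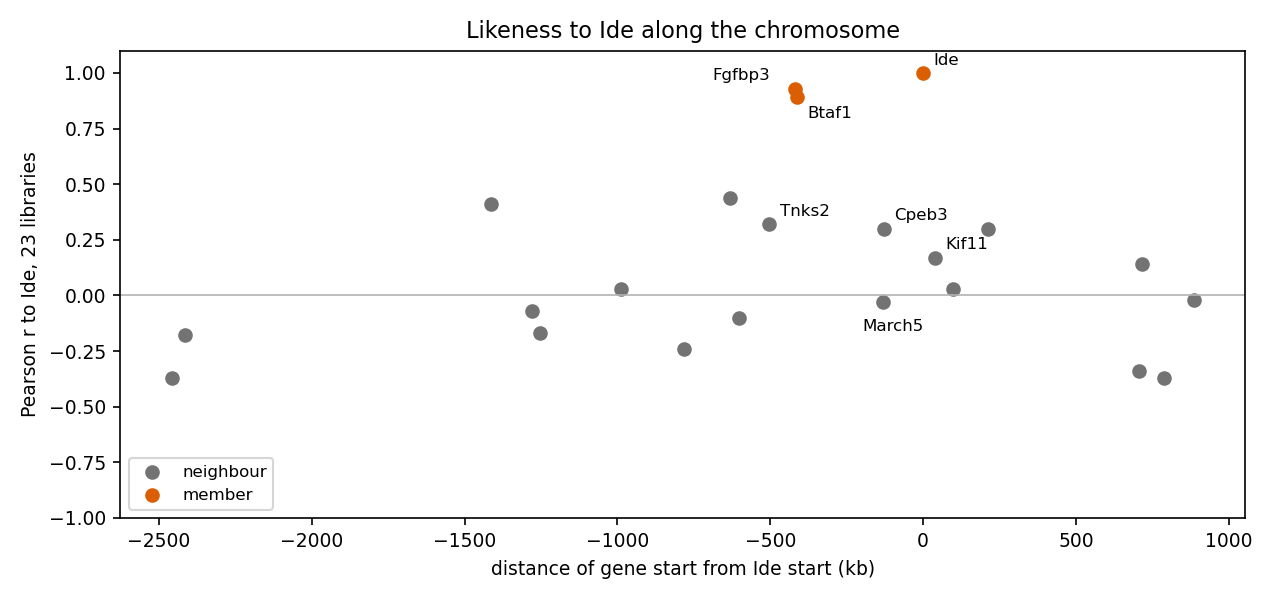
Pearson r to Ide over 23 libraries (vertical axis) against the distance of each gene's start from the start of Ide in kb (horizontal axis), for the 3 members and the 19 tested neighbours. Fgfbp3 and Btaf1 stand at 0.93 and 0.89, and no neighbour passes 0.44, Cpeb3 and March5 included.

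Other measures of the libraries moved less with Ide. Its r was -0.29 with the estimated depth before scaling, 0.02 with the total of normalised reads and 0.08 with the first principal component of the within-group residuals, which holds 10.1% of their variance. For Btaf1 these were -0.46, 0.02 and -0.30. The r of Ide with the mean log2 level of the brain marker lists was 0.23 for neurons, -0.29 for astrocytes, 0.04 for oligodendrocytes, -0.17 for microglia, -0.35 for endothelium and -0.46 for meninges and choroid plexus. The 4 genes of this last list, each read in every library, summed to 6927 to 12180 normalised reads in HT DCS, 8678 to 13160 in HT vehicle, 8523 to 15520 in WT DCS and 8651 to 10980 in WT vehicle. The part of that list, or of depth, in the pattern of Ide was not tested. With the first principal component taken off, an alternative chosen after seeing the data, r to Ide was 0.94 for Fgfbp3 and 0.96 for Btaf1.

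The comparisons of the study ask what the Grin2b mutation does under each treatment, and what DCS does in each genotype. Group means of the 3 genes lay close together beside their spread. Ide averaged 2824 ± 713 normalised reads in HT DCS (SD, n = 6), 2825 ± 1060 in HT vehicle (n = 6), 2554 ± 523 in WT DCS (n = 5) and 2854 ± 441 in WT vehicle (n = 6). Fgfbp3 averaged 153.4 ± 25.1, 152.8 ± 47.7, 135.0 ± 25.8 and 145.6 ± 22.3 in the same order of groups, and Btaf1 1222 ± 260, 1272 ± 269, 1195 ± 184 and 1227 ± 78.6. Ide had a coefficient of variation of 25.2% in HT DCS, 37.4% in HT vehicle, 20.5% in WT DCS and 15.4% in WT vehicle.

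The log2 difference of Ide was -0.08 for HT vehicle minus WT vehicle (95% interval -0.54 to 0.38) and 0.13 for HT DCS minus WT DCS (-0.35 to 0.61). It was -0.17 for WT DCS minus WT vehicle (-0.65 to 0.31) and 0.04 for HT DCS minus HT vehicle (-0.42 to 0.50). Leaving out 1 library at a time gave -0.21 to 0.02 for HT vehicle minus WT vehicle, 0.03 to 0.23 for HT DCS minus WT DCS, -0.27 to -0.07 for WT DCS minus WT vehicle and -0.06 to 0.18 for HT DCS minus HT vehicle. The largest difference of Fgfbp3 was 0.19, for HT DCS minus WT DCS (-0.17 to 0.54), and the differences of Btaf1 lay between -0.06 and 0.03. The change of the genotype difference with DCS was 0.21 for Ide (-0.45 to 0.88), 0.16 for Fgfbp3 (-0.33 to 0.65) and -0.01 for Btaf1 (-0.42 to 0.41). Leaving out 1 library at a time gave 0.11 to 0.35 for Ide, 0.06 to 0.26 for Fgfbp3 and -0.10 to 0.07 for Btaf1. The same step gave 0.11 to 0.27 for Fgfbp3 in HT DCS minus WT DCS, and -0.15 to 0.12 for Btaf1 over the 4 pairwise differences. The intervals describe precision and are no test, since independence from group was part of how they were chosen.

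**Figure D5:**
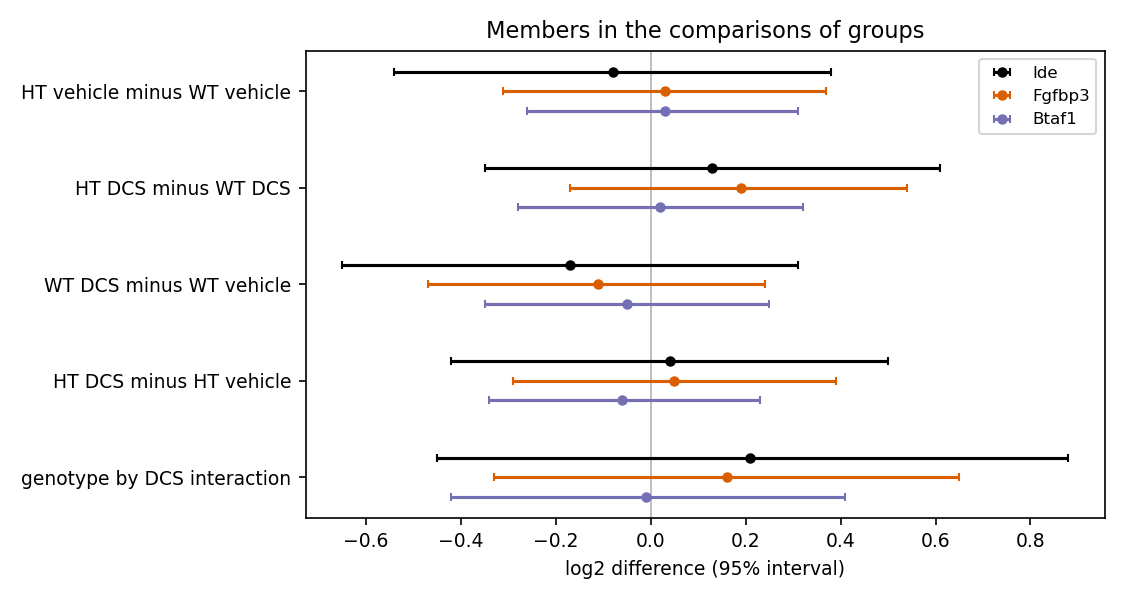
Log2 differences of Ide, Fgfbp3 and Btaf1 between groups (horizontal axis), each with its 95% interval from the fit over all 23 libraries, for the 4 pairwise comparisons and the interaction (vertical axis). The intervals of Ide are the widest of the 3 genes in each comparison, up to -0.45 to 0.88 for the interaction.

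For the neighbours, whose values the rule did not use, the comparisons were tested. In each of the 5 contrasts, 0 of the 19 tested neighbours passed (limma, smallest adjusted p = 0.999 for HT vehicle against WT vehicle, 0.616 for HT DCS against WT DCS, 1.0 for WT DCS against WT vehicle, 0.973 for HT DCS against HT vehicle and 0.984 for the interaction). Over all 17256 genes 0 passed in each as well, a background of 0% called, with 729, 1302, 497, 828 and 756 at an unadjusted p under 0.05 in that order. Of the neighbours, 0, 1, 1, 1 and 0 had such an unadjusted p: Hectd2 in HT DCS against WT DCS, Pank1 in WT DCS against WT vehicle and Exoc6 in HT DCS against HT vehicle. Their median log2 difference was 0.03, 0.01, 0.03, 0.03 and 0.00, beside medians of -0.002 to 0.00 over all genes. Cpeb3 differed by -0.01 ± 0.06 (SE) between HT vehicle and WT vehicle and by -0.04 ± 0.06 between HT DCS and WT DCS (limma, adjusted p = 0.999 and 0.911).

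The pathways of the 3 genes were followed through lists of known partners. For every list r is to Ide, and r to Fgfbp3 or Btaf1 is not given. For Ide, 15 of 16 listed peptidase symbols (Nrdc and Nrd1 name the same gene) and 6 of 12 substrates were tested. None of them passed in any contrast (0 of 15 and 0 of 6, limma, with 2, 1, 1, 2 and 0 peptidases and 0 substrates at an unadjusted p under 0.05). Over all 17256 genes 0 passed as well, with 729, 1302, 497, 828 and 756 at such an unadjusted p. With 0 called over all genes, 0 in this or a later list is not particular to that list. App, the amyloid precursor, averaged 53160 ± 1710 normalised reads in HT DCS, 54130 ± 728 in HT vehicle, 54580 ± 971 in WT DCS and 54450 ± 624 in WT vehicle. Its r to Ide was 0.30, the highest of the substrates, whose median was -0.23. Sst, the peptide somatostatin, averaged 4222 ± 216, 4182 ± 244, 4252 ± 263 and 4259 ± 222 in that order. The growth factor genes Igf2 and Igf1 had r of -0.22 and 0.13 to Ide, and Sst -0.44. Of the peptidases, Nrd1, nardilysin of the same family as Ide, had r 0.13, the lysosomal protease Ctsb -0.06, the aminopeptidase Lnpep 0.42 and the endothelin-converting enzyme Ece1 -0.45. The most negative was Thop1, thimet oligopeptidase, at -0.52. Ece1 averaged 2372 ± 305 in HT DCS, 2462 ± 782 in HT vehicle, 2080 ± 214 in WT DCS and 2060 ± 447 in WT vehicle.

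All 26 insulin and IGF signalling genes were tested, and 0 passed in any contrast (limma, 1, 2, 1, 1 and 1 at an unadjusted p under 0.05). Their r to Ide ran from -0.55 for Igfbp2, an IGF-binding protein, to 0.52 for Pik3r1, the regulatory subunit of PI3 kinase, with a median of 0.10. The kinase genes Gsk3b and Gsk3a had 0.10 and -0.01, and the IGF-binding protein gene Igfbp5 -0.27.

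For Fgfbp3, 24 of 28 FGF ligands, receptors and targets were tested, and 0 passed in any contrast (limma, 0 at an unadjusted p under 0.05 in each). The r to Ide had a median of -0.07, with Fgf22, a presynaptic organiser, highest at 0.46 and Fgf7 lowest at -0.28. The receptor gene Fgfr3, marking astrocytes, had 0.38, while the astrocyte marker list had -0.29. Fgfr3 averaged 3018 ± 533 in HT DCS, 3159 ± 130 in HT vehicle, 2792 ± 446 in WT DCS and 3009 ± 409 in WT vehicle. HT DCS replicate 5, high in Ide, had 4054 of Fgfr3, and the next library of its group 2934. The part of that library in the r was not tested. Of the target genes, Etv5 had -0.24, Etv1 0.15 and Spred1 0.04. For Btaf1, 24 of 25 listed symbols of TBP and TFIID partners were tested (Taf4 and Taf4a name the same gene) and 0 passed in any contrast (limma, 0, 2, 0, 1 and 1 at an unadjusted p under 0.05). The r to Ide had a median of 0.04, from -0.47 for Taf10 to 0.37 for Bdp1, a subunit of TFIIIB. Taf1, the largest TFIID subunit, had 0.21, and averaged 2743 ± 214 in HT DCS, 2745 ± 81.9 in HT vehicle, 2675 ± 160 in WT DCS and 2591 ± 110 in WT vehicle. Its fellow subunit gene Taf2 had 0.14, the TBP-like factor gene Tbpl1 0.19 and Drap1, of a TBP-binding repressor, 0.22. Over the 5 lists the median log2 difference lay between -0.043 and 0.072 in every contrast, beside medians of -0.002 to 0.00 over all genes.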

How the data were processed

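Per the labels' protocols, libraries were made with a TruSeq Stranded mRNA kit. What the authors deposited is a table of normalised read counts (a signal, never negative) of 18848 genes in 23 libraries. GRCm38, DESeq2 1.26.0, Salmon 1.1.0 and R 3.6.2 stand in the submitters' processing notes, without roles. Annotation and filter: not given in the sources used here. Median-of-ratios factors computed from the table were the same for every library, 1.0024, so the table was already scaled that way. Between 58.0% and 77.6% of values up to 5 steps (the worth of 1 read, 0.876 to 1.281) were whole multiples to within 0.15, so reads could not be recovered as whole numbers. Reads of near-identical sequence, such as pseudogenes, can be exchanged.

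Since the table holds no raw counts, limma 3.58.1 (R 4.3.3) was run on log2(value + 1), which understates the changes of low genes, with 1 coefficient per group, a mean trend, robust moderation and Benjamini-Hochberg adjustment at 0.05 over 17256 genes with a mean of at least 10, two-sided. It was tested on simulated data. Contrasts share groups of libraries. Symbols came from a table of identifiers (16 unmatched) and coordinates from GENCODE M21. Members and lists were chosen with earlier results of these data known. Named genes are the members, their neighbours, the 10 genes most and 5 least like Ide, the 5 most like Fgfbp3 and Btaf1, and the 4 most abundant of each list, of which 1 is not reported here. List extremes of r were added after the values were seen. Alternatives were quantile normalisation, rescaling, other filters, pseudocounts of 0.5 and 5, no trend, only the groups compared, replicate blocks, Spearman's rho, linear values, group means left in and leaving out each library. No 2 libraries were alike (smallest mean absolute log2 difference 0.236).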

Additional observations from a re-analysis of the deposited data

Results flagged for a closer look

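In groups of 5 or 6 libraries, a library was singled out where its gap to the nearest other took up most of the group's range (Dixon's 95% critical value). This was examined for 168 sets of values (42 genes in 4 groups), and 16 values were singled out, several of them in the same library. Chance flags about 1 in 20 groups.

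Among the 3 genes it was met once, by Ide, whose separate levels were the reason for its choice. A group with 1 library at the low level and the rest at the middle one is set apart by those levels, so the value is a description. Ide in WT vehicle replicate 2 had 1966 normalised reads, where the other 5 lay at 2930 to 3125. The same library was lowest in its group for Cpeb3, at 1934 against 2289 to 2462. March5 was low in HT vehicle replicate 2, at 1593 against 1683 to 1722.

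HT DCS replicate 5, the library of its group that was high in Ide, stood apart for Baz2b (1626, high), Tsc1 (3065, high) and Smpd1 (3340, low). These genes were examined because their likeness to Ide was among the highest or lowest, so the values restate that choice. The same library stood apart for Fgfr3 (4054, high). It also had the lowest estimated depth of the 23 libraries, 25.6 M reads, and the part of depth in these values was not tested. Of the genes in the pathway lists, Lnpep (3906, low) and Sst (4664, high) were set apart in HT vehicle replicate 6, Etv5 in HT vehicle replicate 3 (3520, high) and WT DCS replicate 4 (3043, low), and Etv1 in WT DCS replicate 4 (5484, high). Gsk3b was low in HT DCS replicate 3 (7081) and Gsk3a in HT DCS replicate 6 (6376). Nrd1 was low in WT vehicle replicate 5 (4677) and Igf2 in WT vehicle replicate 3 (2349).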

How the results depend on the processing

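The likeness to Ide was 0.93 for Fgfbp3 and 0.89 for Btaf1, and all 66 values under the alternatives lay between 0.84 and 0.96. Spearman's rho gave 0.89 and 0.84. For Btaf1 it was 0.84 without the 2 libraries farthest from the median of Ide and 0.96 with the first principal component taken off, both chosen after seeing the data. Leaving out 1 library gave 0.92 to 0.94 for Fgfbp3 and 0.86 to 0.90 for Btaf1. With the replicate number as a block it was 0.94 and 0.90. The numbers were not shown to pair samples: same-numbered libraries correlated over 0.1 in 0 of 6, 0 of 5, 3 of 5 and 0 of 6 pairs of the 4 comparisons. The widest gaps of Ide again left 8, 12 and 3 libraries under quantile normalisation, while rescaling multiplied every library by the same factor. All 492 group differences of the 3 genes moved by less than the gene's within-group SD (0.38 for Ide, 0.31 for Fgfbp3, 0.25 for Btaf1). That bound is wider than every difference of the main fit, and many settings could not move a contrast, so this does not show stability. Signs could turn: Ide in HT vehicle minus WT vehicle went from -0.08 to as much as 0.02 with 1 library left out. The count of genes called was 0 in each contrast, with the replicate block too, and was 0 to 1 when 1 library was left out: Syt2 in HT DCS against WT DCS without HT vehicle replicate 6 (limma, adjusted p = 0.0215), and Ehd1 in HT DCS against HT vehicle without HT DCS replicate 4 or HT vehicle replicate 1 (adjusted p = 0.0164 and 0.0479). In the other 3 contrasts it was 0 throughout. Fgfbp3 has the fewest reads and the largest counting error of the 3 genes. Gene sums do not show transcripts or alleles, and DNA was not measured.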
